A study of Mus musculus with 6 samples.

Results

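Small nucleolar RNAs and the transcripts that carry them were followed in primary mouse microglial cultures kept for 6 h at 1% oxygen (hypoxia) or at 21% oxygen (normoxia). Members were all features of the array with exactly 1 gene symbol that began with Snord, Snora, Scarna or Snhg, together with Gas5 and AF357399, and the feature with the highest mean over the arrays was kept for each symbol. This gave 78 members of 30176 genes tested. There were 45 C/D box RNAs, 18 H/ACA box RNAs, 6 small Cajal body-specific RNAs, 8 host transcripts (Snhg5, Snhg6, Snhg7os, Snhg9, Snhg10, Snhg11, Snhg14 and Snhg18) and AF357399, which the annotation lists as a small nucleolar RNA without a class. Hosts were taken by symbol alone. Snhg7os is listed apart from Snhg7, whose feature also carries Snora17 and Snora43 and gave no member. Whether the introns of Snhg7os hold small RNAs was not checked. Gas5 had no feature of its own, because its features carry the symbols of other genes as well, and 45 features of this kind, among them those of Snhg1, Snhg3 and Snhg12, gave no member.

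Microglia, the resident phagocytes of the brain, had been grown from newborn CD1 pups, an outbred stock, with 5 pups pooled in each culture. Cultures 3, 4 and 6 each gave 1 array at 1% oxygen and 1 array at 21% oxygen, and the labels name no transgene or further agent for either group. Total RNA was hybridised to Affymetrix arrays, and all values below are log2 intensities after robust multi-array averaging (RMA), so that 1 unit stands for a doubling of the signal. A difference is always hypoxia minus normoxia. P-values come from limma with the culture as a block and Benjamini-Hochberg adjustment over all genes tested, with a threshold of 0.05. Standard errors (SE) come from the same fit, which moderates the variance of each gene toward that of all genes. They are therefore not the plain standard errors of the 3 culture differences.

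Small nucleolar RNAs are short nuclear RNAs, most of which in mammals are cut out of the introns of longer transcripts. Those with C and D boxes bind fibrillarin, Nop56, Nop58 and Snu13 and guide methylation of the ribose in ribosomal and spliceosomal RNA, whereas those with H and ACA boxes bind dyskerin, Nhp2, Nop10 and Gar1 and guide pseudouridine formation. Small Cajal body-specific RNAs do the same for spliceosomal RNAs. A few members, such as Snord118 (U8), Snord13 (U13), Snord14 (U14) and Snora73 (U17), are known for roles in processing or acetylation of ribosomal RNA. Host transcripts are the genes whose introns hold such RNAs, and many of them, like the genes of ribosomal proteins, belong to the translation machinery.

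The exposure and the cells were checked first. All 8 hypoxia-inducible genes of the check list were called higher at 1% oxygen, with a median difference of 1.86, and 5 of them without the block. The 9 measured markers of microglia averaged 10.79 to 10.87 in the hypoxia arrays and 10.91 to 10.94 in the normoxia arrays, and 0 of them was called in limma (2 had an unadjusted p under 0.05, both lower). Fibroblast and pericyte markers differed in the other direction. All 8 had a positive difference, the median was 0.58, Col1a1 and Col3a1 were called higher with the block and 0 of the 8 without it, and their mean level ranged from 7.89 to 9.28 in hypoxia and from 7.19 to 8.93 in normoxia. Markers of astrocytes, oligodendrocyte lineage, neurons and endothelial cells had 0 calls (3 endothelial genes had an unadjusted p under 0.05, all higher, and 0 of the others), and the endothelial list averaged 7.18 to 7.43 in hypoxia and 6.91 to 7.29 in normoxia. The part of these other cells in the differences described below was not tested, and in bulk RNA fewer cells of a type and less RNA per cell cannot be told apart.

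Most members had lower signal at 1% oxygen, but for single members the differences seldom passed the threshold. Of the 892 further genes that the annotation lists as small nucleolar RNAs, 39.7% had a difference below 0. Most of these have predicted names, and they were dimmer than the members, with a median level of 5.03 against 8.77. All genes were also placed in 4 bins of equal size by their mean value. In bins 1 and 2, counted from the dimmest, 25.5% and 26.2% of the genes were below 0. In limma, 6 of the 892 were called lower and 0 higher. Of the 78 members, 61 had a difference below 0 and 17 above 0, with a median of −0.24, against a median of 0.03 over all genes, of which 40.3% were below 0. The median of the members was −0.14 without culture 3, after quantile normalization and after cyclic loess. In limma, 1 member, Snora19, was called lower (35 of all genes, 0.116%) and 0 were called higher (127 of all genes, 0.421%). Without the block, the only member called lower was AF357399 (0.0166% of all genes) and 0 were called higher (0.209% of all genes). At an unadjusted p under 0.05, 37 members were lower (9.26% of all genes) and 0 were higher (7.68% of all genes), and without the block 30 were lower (6.1% of all genes) and 0 higher (4.28% of all genes). The count of members called lower depended on single cultures, being 0 without culture 3, 12 without culture 4 and 5 without culture 6, and the count over all genes moved as well, with 1, 94 and 22 called lower in the same order.

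Not all members had the same direction in the 3 cultures. Differences were below 0 in all 3 cultures for 35 members (17.5% of all genes), above 0 in all 3 for 2 members, both of them host transcripts (24.8% of all genes), and of mixed sign for 41. The 3 hypoxia values lay below all 3 normoxia values in 28 members (7.58% of all genes) and above them in 1 member (8.24% of all genes). These shares have to be read against brightness, since bright genes of any kind tended to be lower at 1% oxygen. When all genes were placed in 4 bins of equal size by their mean value, the brightest bin had a median difference of −0.07 and 37.1% of its genes were lower in all 3 cultures, and 46 members fell in that bin. Of these 46, 41 had a difference below 0 (68.9% of the genes in that bin), and the median was −0.24. In all 3 cultures 19 (41.3%) were lower and 0 were higher (13.6% of the genes in that bin). The share lower in all 3 cultures was thus close to that of the bin, while the median was further below 0. At an unadjusted p under 0.05, 20 of the 46 were lower, against 21.9% of the genes in that bin. In bin 3, counted from the dimmest, 11 of 16 members were lower in all 3 cultures, against 18.8% of its genes. In bin 2 these were 4 of 11 members, against 7.99%, and in bin 1 1 of 5, against 6.04%.

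**Figure D1:**
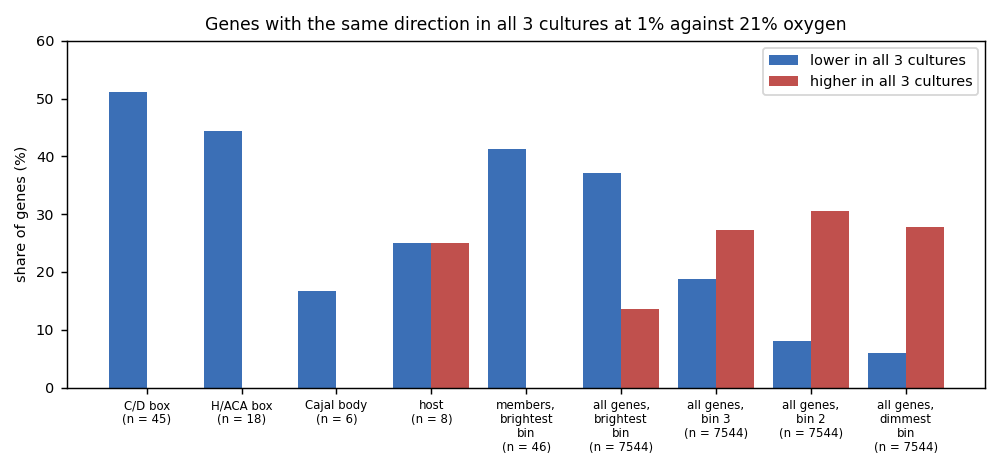
Share of genes (%) whose log2 difference, hypoxia minus normoxia, was below 0 (blue) or above 0 (red) in all 3 cultures, by class of member and, for comparison, for 4 equal bins of mean brightness over all genes tested. C/D box and H/ACA box RNAs have blue bars of 51.1% and 44.4% and no red bar, the hosts have equal bars, and the blue bar of all genes grows with brightness to 37.1%.

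The classes of small RNA lay mainly below 0 and the host transcripts around 0. Of the 45 C/D box RNAs, 41 had a difference below 0 with a median of −0.26, and 23 were lower in all 3 cultures. Of the 18 H/ACA box RNAs, 12 were below 0 with a median of −0.22, and 8 were lower in all 3 cultures. Small Cajal body-specific RNAs had a median of −0.13, with 5 of 6 below 0 and 1 lower in all 3 cultures. The 8 hosts had a median of 0.05, with 2 lower and 2 higher in all 3 cultures. They were dimmer than the small RNAs, with a median level of 6.41 against 9.03. All genes of brightness bins 2 and 3, counted from the dimmest, had median differences of 0.06 and 0.03. The part of brightness in the contrast between hosts and small RNAs was not tested. Cultures did not weigh equally: the median of the C/D box class was −0.44 in culture 3, −0.17 in culture 4 and −0.25 in culture 6, and that of the H/ACA class −0.34, −0.24 and −0.10 in the same order. Small Cajal body-specific RNAs had medians of −0.47, −0.14 and 0.09 in that order. Without culture 3 the H/ACA median was −0.08 and the median of the small Cajal body-specific RNAs −0.006, and without culture 6 the second of these was −0.33. The host median was −0.02 without culture 4, and the C/D box median was −0.16 after quantile normalization. Classes were not tested against each other.

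**Figure D2:**
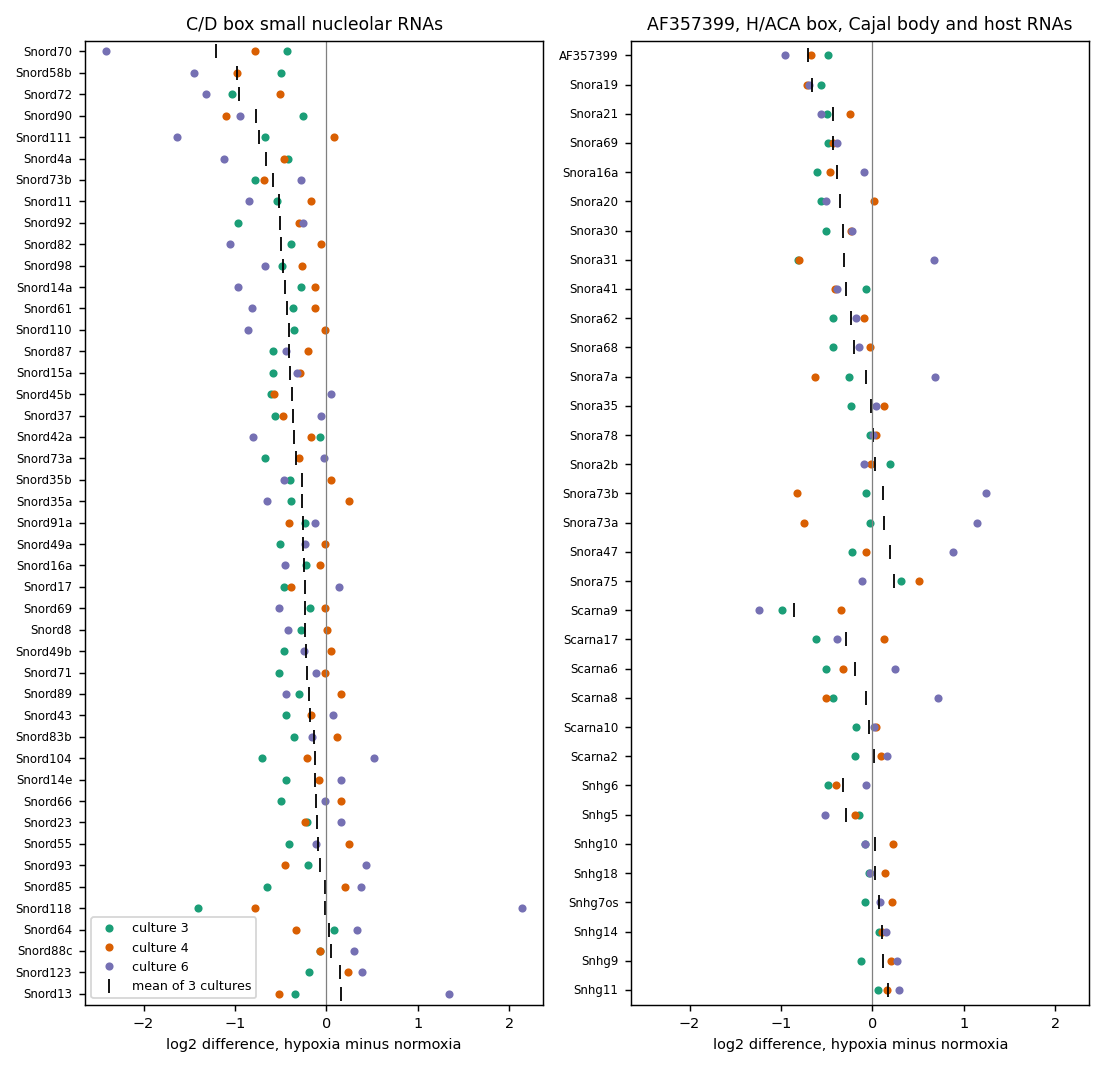
Log2 difference (hypoxia minus normoxia, x axis) of each of the 78 members (y axis, ordered by mean difference within a class), with 1 point per culture and a vertical tick at the mean of the 3 cultures. Most ticks lie left of 0, Snord70 reaches −1.21, and in Snord118, Snord13, Snora73a and Snora73b culture 6 lies over 1 unit to the right of 0 while cultures 3 and 4 lie to the left.

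Snora19, an H/ACA box RNA, was the only member called in the fit with the block. It lies at chr19:60774330-60774385 (GRCm38) within the bounds of Eif3a, a subunit gene of translation initiation factor eIF3. Its feature was dim, near the middle of the array. Values were 5.90, 5.43 and 5.53 in hypoxia for cultures 3, 4 and 6, against 6.47, 6.14 and 6.23 in normoxia, so that every hypoxia value lay below every normoxia value. The 3 cultures differed by −0.57, −0.71 and −0.70, the mean difference was −0.66 ± 0.07 (SE, n = 3 cultures), and the adjusted p in limma was 0.021 with the block and 0.239 without it. Without culture 3 the adjusted p was 0.165. The annotated interval overlaps the hairpin of the microRNA gene Mir3084-2 and holds its whole 3p arm, and for that reason the hairpin of RefSeq is printed here (GRCm38.p6, chr19:60774329-60774397, minus strand), with the bases of Snora19 in capitals, followed by both mature arms with their seeds, bases 2 to 8, in capitals.
Mir3084-2 hairpin: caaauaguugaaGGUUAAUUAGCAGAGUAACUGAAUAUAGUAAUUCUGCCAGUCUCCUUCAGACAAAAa
mmu-miR-3084-3p: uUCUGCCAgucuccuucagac
mmu-miR-3084-5p: gUUGAAGGuuaauuagcagagu
The annotated interval is therefore one with 2 annotated products. Probe positions and the strand of Snora19 were not compared, so which product this feature measured is not known. A further feature that carries the symbols of Snora19 and of a Mir3084 gene together was left out by the rule.

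AF357399, at chr7:28351540-28351633 within the gene of ribosomal protein S16 (Rps16), was the member called without the block. It had 6.67, 6.49 and 6.36 in hypoxia, against 7.16, 7.16 and 7.32 in normoxia. The groups did not overlap, cultures 3, 4 and 6 differed by −0.48, −0.67 and −0.96, and the mean difference was −0.70 ± 0.10 (SE, n = 3 cultures). Its adjusted p in limma was 0.043 without the block and 0.052 with it. Without the block and without 1 array it ranged from 0.047 to 0.205.

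Among C/D box RNAs above the median brightness that moved the same way in all cultures, Snord70, Snord58b, Snord72 and Snord73b had the lowest differences, although none of these passed the threshold. Snord70, which lies within Nop58 at chr1:59691958-59692010, had 7.41, 6.72 and 6.32 in hypoxia, against 7.84, 7.50 and 8.73 in normoxia. The normoxia array of culture 6 was the highest, and with it culture 6 alone differed by −2.41, against −0.44 and −0.78 in cultures 3 and 4. The mean difference was −1.21 ± 0.35 (SE, n = 3 cultures), with an adjusted p of 0.184. Snord72, within the gene of ribosomal protein L37 (Rpl37, chr15:5118421-5118480), had 8.29, 8.51 and 7.99 in hypoxia, against 9.32, 9.02 and 9.31 in normoxia, a wide gap between groups. The mean difference was −0.95 ± 0.15 (SE, n = 3 cultures), with an adjusted p of 0.063.

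Snord58b, a C/D box RNA within the gene of ribosomal protein L17 (Rpl17), was brighter. It had 10.70, 10.07 and 9.85 in hypoxia, against 11.19, 11.05 and 11.30 in normoxia, with a mean difference of −0.97 ± 0.17 (SE, n = 3 cultures) and an adjusted p of 0.077. The kept feature is placed on chromosome 14 while the annotated gene lies on chromosome 18, and the other feature of the symbol, placed on chromosome 18, gave −0.97 as well, so that near-identical copies may share this signal. Snord73b, within the gene of ribosomal protein S3A (Rps3a1), had 9.38, 9.30 and 9.55 in hypoxia, against 10.16, 9.98 and 9.83 in normoxia. Its mean difference was −0.58 ± 0.11 (SE, n = 3 cultures), with an adjusted p of 0.087.

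**Figure D3:**
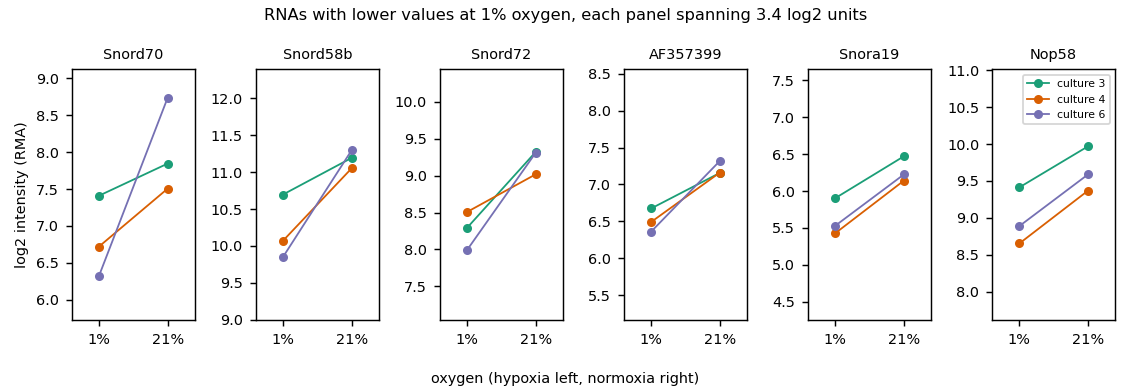
Log2 intensity (y axis) at 1% oxygen (left) and 21% oxygen (right) of Snord70, Snord58b, Snord72, AF357399, Snora19 and the protein-coding gene Nop58, with 1 line per culture and the same span of the y axis in each panel. Every line is higher on the right, and those of Snora19 and Nop58 run nearly parallel.

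The H/ACA box RNAs next to Snora19 by the same rule were Snora21, Snora69 and Snora16a. Snora69, within the gene of ribosomal protein L39 (Rpl39), had 8.90, 8.85 and 9.20 in hypoxia, against 9.39, 9.28 and 9.59 in normoxia. The 3 cultures differed alike, by −0.49, −0.43 and −0.39, and the mean difference of −0.44 ± 0.06 (SE, n = 3 cultures) had an adjusted p of 0.055 with the block and 0.367 without it. Snora21, within the gene of ribosomal protein L23 (Rpl23), had 10.44, 10.54 and 10.59 in hypoxia, against 10.93, 10.78 and 11.16 in normoxia, a mean difference of −0.44 (adjusted p = 0.095). Snora16a, within the host Snhg12, had 10.14, 9.82 and 10.16 in hypoxia, against 10.75, 10.29 and 10.25 in normoxia, a mean difference of −0.39 (adjusted p = 0.170). In each of these the groups did not overlap. No H/ACA box RNA was higher in all 3 cultures.

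Scarna9 was the only small Cajal body-specific RNA lower in all 3 cultures. It lies within Cep295, a gene of a centrosomal protein, and had 6.68, 6.55 and 5.98 in hypoxia, against 7.67, 6.89 and 7.22 in normoxia. The mean difference was −0.86 ± 0.16 (SE, n = 3 cultures), with an adjusted p of 0.095. The other 5 RNAs of the class differed by −0.29 to 0.02.

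Among members with known roles in the processing or acetylation of ribosomal RNA, Snord118, Snord13, Snora73a, Snora73b and Snord14e were higher at 1% oxygen in culture 6, whereas Snord14a was lower there. Snord118 (U8), required in vertebrates for maturation of the 5.8S and 28S ribosomal RNAs, had 7.46, 7.71 and 9.92 in hypoxia, against 8.87, 8.49 and 7.78 in normoxia. Cultures 3 and 4 differed by −1.41 and −0.78 and culture 6 by 2.14, so that the mean difference was −0.02 ± 0.62 (SE, n = 3 cultures). Snord13 (U13), which guides acetylation of 18S ribosomal RNA, had 10.43, 10.40 and 10.76 in hypoxia, against 10.77, 10.92 and 9.42 in normoxia. Here the normoxia array of culture 6 stood below all others, and the mean difference was 0.16 ± 0.34 (SE, n = 3 cultures).

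Snora73a and Snora73b, the copies of U17 within the host Snhg3, behaved as a pair. Snora73a had 10.59, 9.70 and 10.43 in hypoxia, against 10.61, 10.45 and 9.29 in normoxia. Snora73b had 10.69, 9.82 and 10.66 in hypoxia, against 10.76, 10.64 and 9.42 in normoxia. Both had a mean difference of 0.12, made of values near 0 in culture 3, below 0 in culture 4 and above 1 in culture 6. The copies are similar in sequence, so their features cannot be taken as independent. Of the copies of Snord14 (U14), Snord14a within Rps13 differed by −0.46 ± 0.16 and Snord14e within Hspa8, the gene of a constitutive heat shock protein, by −0.12 ± 0.11 (SE, n = 3 cultures each), with adjusted p-values of 0.236 and 0.609. Snord14a had 7.80, 7.69 and 7.45 in hypoxia, against 8.07, 7.81 and 8.42 in normoxia, and Snord14e had 9.98, 10.04 and 10.23 in hypoxia, against 10.42, 10.12 and 10.07 in normoxia. Only the groups of Snord14a did not overlap.

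In all, 17 members were lower in cultures 3 and 4 and higher in culture 6, whereas 13 were higher in culture 4 alone and 1 in culture 3 alone. In 8 members the normoxia array of culture 6 lay over 0.5 log2 units below both other normoxia arrays, and in 2 of them, Snord13 and Snora47, over 0.5 log2 units below all other arrays. Besides Snord13, Snora73a and Snora73b, the turn in culture 6 was seen in Snora47, within Zbed3, with 8.62, 8.78 and 8.97 in hypoxia, against 8.85, 8.85 and 8.09 in normoxia. Snora31, within the translationally controlled tumor protein gene Tpt1, had 9.72, 8.89 and 9.31 in hypoxia, against 10.53, 9.70 and 8.64 in normoxia. Both were chosen after their values were seen. Over the 78 members, the differences of cultures 3 and 4 had a Spearman rho of 0.33, those of cultures 3 and 6 of 0.24 and those of cultures 4 and 6 of 0.03, given as a description across members, which share arrays. Genes of small nuclear RNAs outside the members, taken by symbol alone, moved with this pattern. The 14 genes with symbols that begin with Rnu had median differences of −0.20 in culture 3, −0.84 in culture 4 and 0.24 in culture 6. The source of the difference between cultures was not tested.

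**Figure D4:**
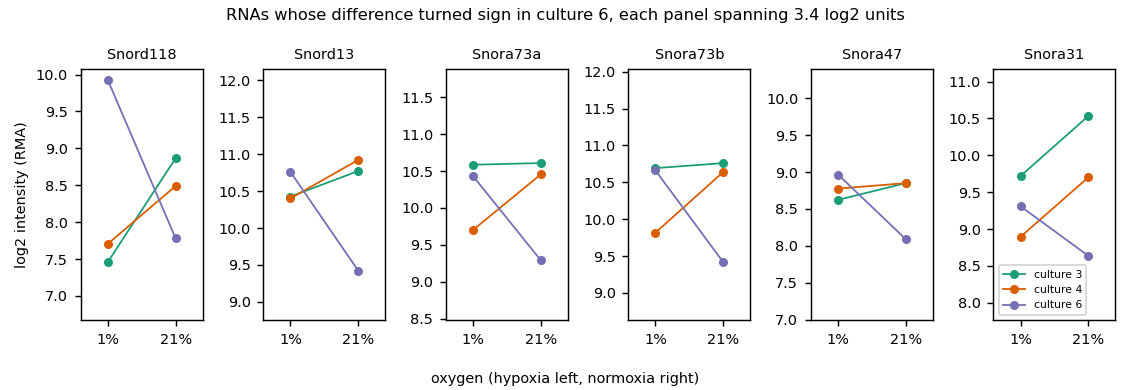
Log2 intensity (y axis) at 1% oxygen (left) and 21% oxygen (right) of Snord118, Snord13, Snora73a, Snora73b, Snora47 and Snora31, with 1 line per culture and the same span of the y axis in each panel. The line of culture 6 falls from left to right in every panel while those of cultures 3 and 4 are level or climb, and for all but Snord118 the lowest value is that of culture 6 at 21% oxygen.

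Host transcripts differed little. Snhg6 had the lowest difference among them. It had 6.65, 6.40 and 6.78 in hypoxia, against 7.13, 6.80 and 6.85 in normoxia, and its difference of −0.32 ± 0.09 (SE, n = 3 cultures) had an adjusted p of 0.189. Snhg5 had 7.52, 7.23 and 7.16 in hypoxia, against 7.67, 7.42 and 7.68 in normoxia, a difference of −0.29 ± 0.09 (adjusted p = 0.205). Snhg11, with 5.84, 6.02 and 6.08 in hypoxia, against 5.78, 5.87 and 5.79 in normoxia, was the highest of the class, at 0.17 ± 0.07 (adjusted p = 0.308). The groups overlapped in Snhg5 and Snhg11 but not in Snhg6. Snhg14, the long host of the Prader-Willi region, was near the lower end of the array, at 3.08 in hypoxia and 2.97 in normoxia. Its 3 hypoxia values exceeded its normoxia values, by a mean of 0.11.

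Hosts and the small RNAs within their bounds were then set side by side where both had a feature. Snhg6 differed by −0.32 and its C/D box RNA Snord87 by −0.41. Snhg9 differed by 0.11 and its H/ACA box RNA Snora78 by 0.01. Snhg18 differed by 0.03 and Snord123 by 0.15, and Snhg14 by 0.11 and Snord64 by 0.03. In these 4 pairs the small RNA and its host thus lay within 0.12 of each other, but in all except the pair of Snhg6 both differences were 0.15 or less. Snord64 and Snhg14 were dim, with mean levels of 3.70 and 3.02. Snord87 lies within Mcmdc2 as well, which differed by −0.02 at a mean level of 3.87. Snora78 lies within Rps2 as well, which had no feature of its own.

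The promoters of 7 of the 8 hosts had an entry in RefSeq. Hypoxia-inducible factors bind DNA with the core ACGTG or GCGTG, and the windows of 300 bases, from 250 before to 50 after the annotated start, were searched for both words on both strands. All 7 hosts held a match in at least 1 window, against 46.7% of 27025 genes in the table, and so did 37 of 50 genes that hold a small RNA (74.0%). The 7 hosts had 9 windows, and Snhg7os held a match in only 1 of its windows. These groups of genes were not matched for base composition or brightness, and the difference in shares was not tested. The windows of Snhg5 and Snhg11, the hosts with an entry and the lowest and highest difference, are shown with the matches in capitals (GRCm38.p6, Snhg5 at chr9:88522848-88523147 on the minus strand and Snhg11 at chr2:158375463-158375762 on the plus strand).
Snhg5: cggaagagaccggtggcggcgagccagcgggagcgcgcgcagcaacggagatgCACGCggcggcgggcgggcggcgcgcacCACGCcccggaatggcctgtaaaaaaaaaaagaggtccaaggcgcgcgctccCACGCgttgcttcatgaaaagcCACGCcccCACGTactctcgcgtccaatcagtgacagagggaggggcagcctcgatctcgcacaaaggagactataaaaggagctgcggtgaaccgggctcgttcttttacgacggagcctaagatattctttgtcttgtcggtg
Snhg11: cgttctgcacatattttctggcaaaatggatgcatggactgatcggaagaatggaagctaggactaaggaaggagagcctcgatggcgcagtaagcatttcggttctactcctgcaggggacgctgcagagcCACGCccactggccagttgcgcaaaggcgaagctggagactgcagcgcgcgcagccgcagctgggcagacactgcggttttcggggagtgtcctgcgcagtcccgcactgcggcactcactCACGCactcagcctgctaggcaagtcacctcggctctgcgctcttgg
Snhg5 held 5 matches, all before the start, and Snhg11 held 2, of which 1 lay before the start. Neither host was called.

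Of the 70 small RNAs, 60 lay within the bounds of 1 annotated gene, 6 within several and 4 (Snord118, Snord13, Snord89 and Scarna2) within none. The 20 small RNAs held by a single ribosomal protein gene all had a difference below 0, with a median of −0.34, and 14 of them were lower in all 3 cultures. The 31 held by another protein-coding gene had a median of −0.32, with 27 below 0 and 14 lower in all 3 cultures. The 9 held by a single noncoding gene had a median of −0.13, with 5 below 0, and the 4 outside genes a median of 0.00. These groups parted mainly in culture 6, where their medians were −0.42, −0.11, 0.33 and 0.75 in the order given. In culture 3 the medians were −0.43, −0.44, −0.46 and −0.32, and in culture 4 −0.21, −0.17, −0.21 and −0.21.

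For 32 small RNAs the single holding gene had a feature of its own. In 26 of these the small RNA had the lower difference and in 6 the gene, and the median of small RNA minus gene was −0.23. The holding genes, 29 in number, had a median of −0.08. Wide gaps were seen for Scarna9 (−0.86) against Cep295 (−0.06) and for Snord111 (−0.74) against Sf3b3 (−0.04), a splicing factor gene. Another was that of Snord37 (−0.36) against Eef2 (0.09), the gene of elongation factor 2. Scarna9 and Snord37 were lower in all 3 cultures, whereas Snord111 differed by −0.68, 0.08 and −1.64 in cultures 3, 4 and 6. Within one gene the mean differences of the small RNAs could also part: of the 2 in Ncl, which encodes nucleolin and differed by −0.14, Snora75 differed by 0.24 and Snord82 by −0.50. In cultures 3, 4 and 6 Snora75 differed by 0.31, 0.51 and −0.11, and Snord82 by −0.39, −0.06 and −1.05. Both were thus lower in culture 6. These gaps were not tested, and the small RNAs and their genes were measured on the same arrays.

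**Figure D5:**
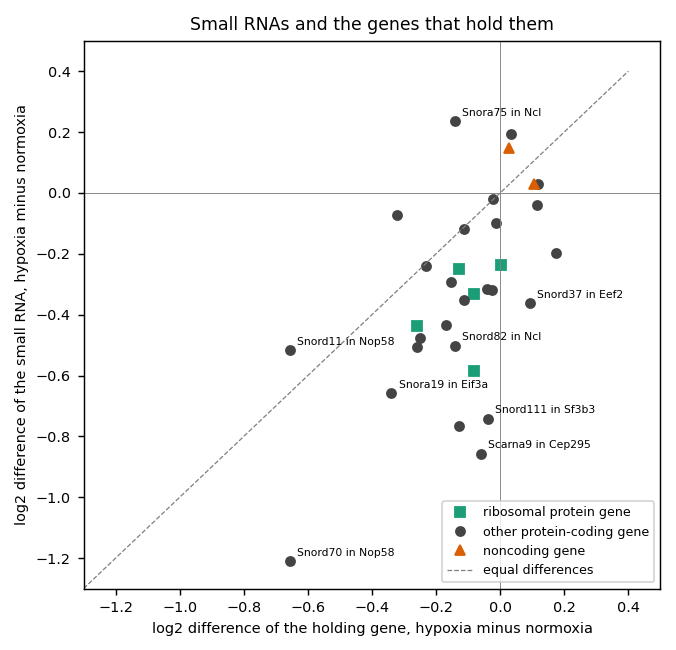
Log2 difference, hypoxia minus normoxia, of 32 small RNAs (y axis) against that of the gene that holds each (x axis), by kind of gene, with a dashed line where both are equal. Most points, 26 of 32, lie below the dashed line, and the pairs within Nop58 lie furthest to the left at −0.66.

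Nop58, the gene of a core protein of C/D box particles and the holder of Snord11 and Snord70, was itself called lower. It had 9.41, 8.65 and 8.89 in hypoxia, against 9.97, 9.37 and 9.59 in normoxia. Cultures 3, 4 and 6 differed by −0.56, −0.72 and −0.70, and the mean difference was −0.66 ± 0.07 (SE, n = 3 cultures). The levels of the cultures overlapped between groups, so that the call rested on the pairing (adjusted p in limma 0.022 with the block and 0.410 without it), and without culture 3 it was lost (adjusted p = 0.164). Snord11, the C/D box RNA that shares this gene with Snord70, had 8.51, 8.53 and 8.58 in hypoxia, against 9.04, 8.70 and 9.42 in normoxia, a difference of −0.52.

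Apart from Nop58, the genes of the protein machinery were not called. Of the C/D core proteins, Nop56 and Snu13 were not among the genes tested, and Fbl, which encodes the methyltransferase fibrillarin, differed by −0.05. Rrp9, which encodes the U3-specific protein and was listed with them, differed by −0.01. Of 4 H/ACA core proteins, 0 were called, and 1 had an unadjusted p under 0.05. Dkc1, the gene of the pseudouridine synthase dyskerin, had 7.65, 7.13 and 7.43 in hypoxia, against 8.02, 7.65 and 7.90 in normoxia, which did not overlap (difference −0.45, adjusted p = 0.055 with the block). The 15 assembly and trafficking factors had a median of −0.07 and 0 calls (3 lower and 1 higher at an unadjusted p under 0.05), with values of 0.38 for the ATPase gene Ruvbl2 and −0.28 for Nolc1, whose product is a nucleolar chaperone. The 20 genes of the nuclear exosome and of 3′ trimming had a median of −0.10 and 0 calls in limma. They lay in brightness bins 3 and 4, counted from the dimmest. In all 3 cultures 10 were lower, against 18.8% of all genes of bin 3 and 37.1% of bin 4. At an unadjusted p under 0.05 there were 8, all lower, against 736 of 7544 genes lower in bin 3 and 21.9% in bin 4. Their lowest differences were those of Exosc1 (−0.40) and Dis3 (−0.32), which encode exosome subunits. RNA polymerase I genes (10 measured, median −0.06), nonsense-mediated decay factors (10, median −0.03) and regulators of 5′ terminal oligopyrimidine messages (6, median −0.02) had 0 calls each, and at an unadjusted p under 0.05 the first had 1 lower, the second 0 and the third 2 lower and 1 higher. Among the regulators, Eif4ebp1, which encodes an inhibitor of cap-dependent translation, differed by 0.79 with an adjusted p of 0.076.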

How the data were processed

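Total RNA of 6 arrays was measured, and per the labels the authors deposited log2 intensities made by RMA in Affymetrix Expression Console on build mm10 (GRCm38); versions of these tools were not stated. Because RMA brings the probe values of all arrays to one distribution, a shift common to all RNA cannot be seen. The deposited values themselves were not on one distribution. Array medians lay between 5.84 and 5.92, and quantile normalization of these values moved the median of the members from −0.24 to −0.14. Depth has no meaning for arrays, and their number limits the precision.

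Of 72688 features, 65956 were transcript clusters; 30638 had 1 symbol, which gave 30176 genes, the brightest feature being kept for 354 symbols with several. The difference was fitted with lmFit and eBayes in limma 3.58.1 (R 4.3.3), culture as a fixed block, and tested on simulated data first. Labels pair the arrays by culture: deviations from group means correlated at 0.22 to 0.57 within a culture and at −0.50 to 0.14 between cultures. P-values with the block rest on the spread between these 3 cultures, with the variance of each gene moderated toward that of all genes. Those without the block rest on the spread between arrays of a group, moderated in the same way. Members, lists and tests were chosen with earlier results of these data known, and no list was tested as a set. Holding genes were found by position in the RefSeq annotation of GRCm38.p6; strand and introns were not compared, although the plan had named the strand. Members named in the text were those past the threshold in the fit with or without the block, up to 4 per class and direction with the largest difference among those above the median brightness and alike in 3 cultures, hosts with a measured small RNA, and Snord118, Snord13, Snord14 and Snora73; members used to show holding genes and cultures were chosen after their values were seen. Alternatives were the block, the normalization, the filter on dim genes, the choice of feature, array weights, the prior variance and leaving out arrays.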

Additional observations from a re-analysis of the deposited data

How the results depend on the processing

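The culture is a replicate block given by the labels. Without the replicate block 63 genes were called higher and 5 lower, in place of 127 and 35, and the count of members called lower was 1, AF357399 in place of Snora19. With the culture as a random block 3 members were called lower. Genes called higher and lower were 66 and 11 after median centring, 206 and 107 with dim genes left out, 50 and 3 with every transcript cluster tested, 249 and 144 with array weights, and 214 and 117 with a trended prior variance. Genes called lower were 21 after quantile normalization and 17 after cyclic loess. Members called lower were 4 with dim genes left out, 0 with every transcript cluster tested, 5 with array weights and 4 with a trended prior variance. Leaving out both arrays of a culture gave 0, 12 and 5 members called lower without cultures 3, 4 and 6, 1 to 94 genes called lower, 17 to 135 called higher, 21 to 43 members lower at an unadjusted p under 0.05 and a median of −0.32 to −0.079 for the H/ACA class. Without the block and without 1 array, 0 to 2 members and 1 to 16 genes were called lower. Genes called higher were then 40, 34 and 27 without the hypoxia array of cultures 3, 4 and 6 and 38, 39 and 29 without the normoxia array, and members lower at an unadjusted p under 0.05 were 22, 24 and 28, and 24, 38 and 29. Snora19 and Nop58 were called without culture 4 and without culture 6 but not without culture 3. The median of all members was −0.14 after quantile normalization or cyclic loess and −0.30 to −0.14 without 1 culture. The sign turned in 5 members that were not called with all 3 cultures, of which Snord118 was called lower without culture 6 (adjusted p = 0.038): Snord118 (0.044 after quantile normalization, 0.017 after cyclic loess, −1.10 to 0.68 without 1 culture, and 0.44, 0.31, 0.23 and 0.040 without the block and without 1 array), Snord13 (−0.10 with array weights, −0.43 to 0.50 without 1 culture, and −0.32 without the block and its normoxia array), Snora73b (−0.21, −0.44 to 0.59 and −0.31 in the same order, and −0.033 and −0.017 without the block and the hypoxia array of culture 3 or 6), Snora73a (−0.19, −0.39 to 0.56 and −0.29, and −0.051 without the block and the hypoxia array of culture 3) and Snord14e (−0.26 to 0.039 without 1 culture). The cause was not tested. Of the other values of single members and genes, 334 kept direction and side of the threshold, 25 passed the threshold newly and 19 no longer passed it. No background signal was used here, so whether dim features lie above background was not assessed.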

Other observations

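Small RNAs outside the members were described in the same fit. Of 892 further genes that the annotation lists as small nucleolar RNAs, most of them with predicted names and dim, the median difference was 0.03, 6 were called lower in limma and 0 higher (82 and 54 at an unadjusted p under 0.05). Without the block 0 were called. The 6 were Gm22571 (−0.85), Gm24988 (−0.62), Gm25188 (−0.62), Gm22786 (−0.58), Gm25800 (−0.53) and Gm23245 (−0.50). The brightest, Gm23245, had 10.23, 10.12 and 10.37 in hypoxia, against 10.79, 10.53 and 10.91 in normoxia, and the groups did not overlap.

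The 586 genes with symbols that begin with Mir, dim for the most part, had a median difference of 0.06 with 31.9% below 0. Of them 1, Mir684-1, was called lower, with 8.88, 7.78 and 7.99 in hypoxia, against 9.41, 8.73 and 9.09 in normoxia (difference −0.86, adjusted p in limma 0.046 with the block and 0.413 without it). Of the 14 Rnu genes, all had a mean difference below 0, with a median of −0.20, but only 2 were lower in all 3 cultures and 12 were of mixed sign. Their medians were −0.20, −0.84 and 0.24 in cultures 3, 4 and 6. Rnu5g, a gene of the spliceosomal U5 RNA, was the one called lower, with 7.03, 6.56 and 6.74 in hypoxia, against 7.50, 7.41 and 7.57 in normoxia (difference −0.72, adjusted p in limma 0.045 with the block and 0.098 without it). These genes were chosen by the threshold after their values were seen, and for families of near-identical copies the array may not tell the copies apart.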
